A study of Mus musculus with 8 samples.

Results

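The Yippee family holds 5 genes in the mouse, Ypel1 to Ypel5, all chosen by name and all carried by the array through 10 probe sets that belong to a single gene, of 45101 probe sets in the table. Ypel1 and Ypel2 have 3 probe sets each, Ypel5 has 2, and Ypel3 and Ypel4 have 1 each. The samples were Gr-MDSCs, granulocytic myeloid-derived suppressor cells taken as CD11b+ Ly6G+ Ly6C low cells by magnetic sorting from prostate tumors of CPPSML males aged 12 to 16 weeks. These mice are PtenL/L, p53L/L and Smad4L/L, carry the PB-Cre+ transgene, and hold the mTmGL/+ and LSL-LucL/+ reporters. All donors, those of the control samples included, had this genotype, were castrated and then ate an enzalutamide diet, and PB-Cre is driven by the probasin promoter, which is active in prostate epithelium. The isolated cells were incubated for 6 h with DMSO (4 samples, numbered 2 to 5), with 0.1 µM Dactolisib, an inhibitor of PI3K and mTOR (2 samples), or with 0.1 µM Dasatinib, an inhibitor of Src and Abl kinases (2 samples), and total RNA of each sample was put on 1 array.

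Yippee proteins are small, zinc-binding and strongly conserved, and Ypel1 to Ypel4 resemble one another more closely than they resemble Ypel5. Their fold is shared with the Mis18 proteins of the centromere and with cereblon, a substrate receptor of a ubiquitin ligase. Ypel5 is a subunit of the CTLH complex, a ubiquitin ligase, Ypel3 is a known target of p53 that can drive growth arrest, and the role of Ypel2 is less well described.

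The upstream stretches of 3 members are shown because Ypel2 was the member with the large Dactolisib difference, while Ypel3 and Ypel5 stayed close to their DMSO arrays. They are taken from RefSeq (GRCm38.p6), in which all 5 members had an entry, and each ends at the first base before the annotated gene. Ypel2 lies at chr11:86936425-86993805 on the minus strand, Ypel3 at chr7:126776963-126780510 and Ypel5 at chr17:72836628-72850444, both on the plus strand. The stretches are Ypel2 chr11:86993806-86994012, Ypel3 chr7:126776713-126776962 and Ypel5 chr17:72836378-72836627. They run 5′ to 3′ on the strand of the gene, and capitals mark the CCAAT box (read as CCAAT or, on the other strand, ATTGG) and the GC box (GGGCGG or CCGCCC).
Ypel2: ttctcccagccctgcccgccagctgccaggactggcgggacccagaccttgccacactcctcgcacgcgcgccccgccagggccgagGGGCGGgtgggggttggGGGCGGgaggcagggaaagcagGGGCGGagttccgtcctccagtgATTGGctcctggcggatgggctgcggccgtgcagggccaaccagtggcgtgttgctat
Ypel3: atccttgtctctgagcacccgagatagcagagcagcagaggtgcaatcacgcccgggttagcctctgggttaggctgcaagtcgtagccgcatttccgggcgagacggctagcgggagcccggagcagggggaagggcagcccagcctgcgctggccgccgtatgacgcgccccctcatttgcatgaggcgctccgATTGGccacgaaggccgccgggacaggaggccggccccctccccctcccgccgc
Ypel5: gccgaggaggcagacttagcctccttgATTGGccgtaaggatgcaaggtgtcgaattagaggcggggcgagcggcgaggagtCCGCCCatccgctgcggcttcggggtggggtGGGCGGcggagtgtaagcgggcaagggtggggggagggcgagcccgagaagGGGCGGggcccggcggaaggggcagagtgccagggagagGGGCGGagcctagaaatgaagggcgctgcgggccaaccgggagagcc

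The Ypel2 stretch of 207 bases held 3 GC boxes and 1 CCAAT box, the Ypel5 stretch of 250 bases held 4 GC boxes and 1 CCAAT box, and the Ypel3 stretch of 250 bases held 1 CCAAT box and 0 GC boxes. Windows of 300 bases around a start site, 32851 in all, held a CCAAT box in 37.4% of cases and a GC box in 35.7%, on either strand. A FoxO motif (GTAAACA), the site read by transcription factors that Akt keeps out of the nucleus, was absent as letters from the Ypel2 window and present in the Ypel3 window, 26 bases after the start site (the stretch shown is chr7:126776977-126777005), and 3.65% of all windows hold it. An E-box (CACGTG) occurred 27 bases after the second annotated start site of Ypel5 (chr17:72837551-72837578), and in 7.15% of all windows. A match describes these letters only. Both matches are shown on the plus strand with the motif in capitals.
Ypel3: ctggtctcggtGTAAACAagtcgaggcgg
Ypel5: ctggagggagtCACGTGggcgcgatcag

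By correlation the 8 arrays formed 3 sets, each with DMSO and drug arrays: Dactolisib 1 with DMSO 2 and DMSO 4 (set A), Dactolisib 2 with Dasatinib 2 and DMSO 3 (set B), and Dasatinib 1 with DMSO 5 (set C). Calprotectin transcripts, counted here among the granulocyte markers, were abundant on every array (S100a9 at a log2 signal of 13.69 to 14.13). The array table names no single-gene probe set for Ly6g, the sort marker. Monocyte and macrophage markers were also present on every array, with Csf1r at 11.43 to 12.47 and Cd68 at 10.99 to 11.78. The summed level of 12 such markers ran from 13.14 to 13.55. The summed level of 13 epithelial markers on the log2 scale lay at 13.02 to 13.25 (set A), 10.76 to 11.08 (set B) and 15.51 to 15.53 (set C), and that of 13 granulocyte markers at 15.86 to 15.93, 15.63 to 15.70 and 15.46 to 15.62. For that reason each comparison is given without a block, as in the study's methods, and again with a term for the array set ("within array sets"). Each drug array was also set against the DMSO arrays of its own set ("own-set difference"). No source used here says that the samples of a group came from separate animals or cultures, so the spread between them may be technical.

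Of the 10 family probe sets, 7 lay in the upper 66.7% by mean signal and were among the 30024 probe sets tested: both of Ypel5, the 1 of Ypel3, 2 of 3 of Ypel1 and 2 of 3 of Ypel2. The single probe set of Ypel4 and the 1 other probe set each of Ypel1 and Ypel2 lay below that limit, and their values are given without a test. The family was chosen for the Dactolisib difference of Ypel2, so all values of Dactolisib against DMSO below are a description.

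**Figure D1:**
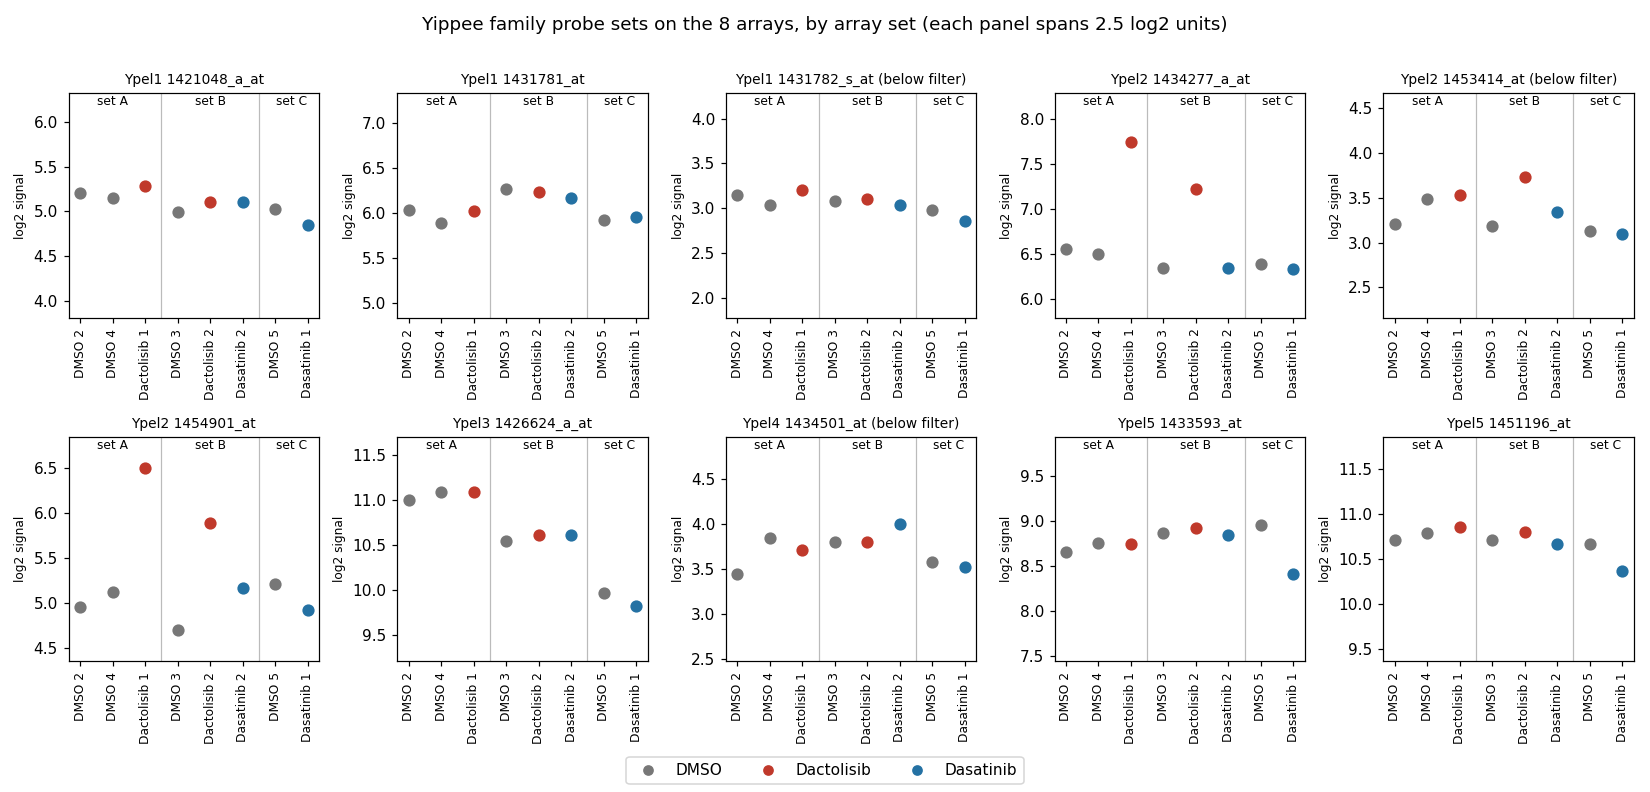
Log2 signal (y axis) of the 10 Yippee family probe sets on each of the 8 arrays (x axis), grouped by array set, with every panel spanning the same log2 range. Each point is 1 array, gray for DMSO, red for Dactolisib and blue for Dasatinib, and for Ypel2 1434277_a_at the Dactolisib arrays lie at 7.75 and 7.22 above the other 6 arrays at 6.33 to 6.55, while Ypel3 follows the array sets.

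Ypel2 was higher on both Dactolisib arrays than on any DMSO or Dasatinib array, on all 3 of its probe sets. On 1434277_a_at its log2 signal was 7.75 and 7.22 on Dactolisib 1 and 2, 6.33 and 6.34 on Dasatinib 1 and 2, and 6.55, 6.34, 6.50 and 6.39 on DMSO 2 to 5. The 6 arrays without Dactolisib thus spanned a narrow range, and the lower Dactolisib array stood well above it. On 1454901_at the log2 signal was 6.50 and 5.89 under Dactolisib, 4.91 and 5.16 under Dasatinib, and 4.95, 4.69, 5.11 and 5.21 on DMSO 2 to 5. Its other probe set, 1453414_at, was dim, with 3.53 and 3.73 under Dactolisib, 3.09 and 3.34 under Dasatinib and 3.13 to 3.49 under DMSO, and its Dactolisib arrays barely cleared the DMSO arrays.

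Against the DMSO arrays of its own set, Ypel2 1434277_a_at was higher by log2 1.22 on Dactolisib 1 and 0.88 on Dactolisib 2. The difference for Ypel2 1454901_at was 1.46 and 1.19. DMSO 2 and DMSO 4, the only DMSO arrays that share a set, differed from each other by 0.05 and -0.16 on these probe sets. Among the 30024 tested probe sets ordered by own-set difference, Ypel2 1454901_at had rank 1 on Dactolisib 1 and rank 3 on Dactolisib 2, and 1434277_a_at had ranks 3 and 16. The Dactolisib 2 values rest on DMSO 3 alone, which at 4.69 was the lowest of the 8 arrays on 1454901_at. Within array sets the Dactolisib difference was 1.08 ± 0.10 (SE, 2 arrays against 3), or 2.11-fold, on 1434277_a_at, and 1.35 ± 0.10, or 2.54-fold, on 1454901_at. On the dim probe set it was 0.33 ± 0.12. Without the block the same differences were 1.04 ± 0.17, 1.20 ± 0.22 and 0.37 ± 0.14 (2 arrays against 4).

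The 2 tested Ypel2 probe sets were the family probe sets past the limma threshold in this comparison, 2 of 7 higher and 0 lower within array sets, where 2.19% of all tested probe sets were called higher and 4.2% lower. Since the comparison chose the family, nothing is read from that count. Leaving out Dactolisib 1, Dactolisib 2 or DMSO 3 lost the Ypel2 calls together with those of all other tested probe sets. Ypel2 1434277_a_at then stood at 0.88, 1.22 and 1.22. Without the block 0 of 7 were called (0% of all tested probe sets) and 2 were higher at an unadjusted limma p under 0.05, as were 2.89% of all tested probe sets, and the methods' t-test also called 0 after adjustment. Counted by the arrays alone, 3 of the 7 tested probe sets (4 of all 10) had both Dactolisib arrays above all 4 DMSO arrays, against 11.4% of the tested probe sets. These were the Ypel2 probe sets and Ypel5 1451196_at. The latter barely cleared, with the lower Dactolisib array at 10.797 and the highest DMSO array at 10.794.

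**Figure D2:**
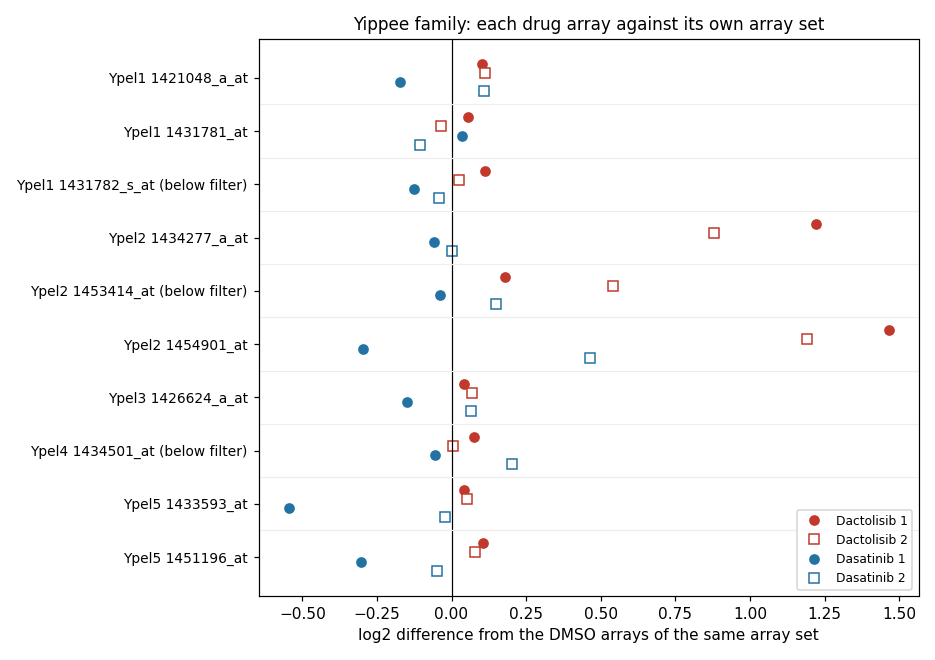
Own-set difference of each drug array, its log2 signal minus the mean of the DMSO arrays of its array set (x axis, log2), for the 10 Yippee family probe sets (y axis). Circles are replicate 1 and squares replicate 2, red for Dactolisib and blue for Dasatinib; Ypel2 1434277_a_at lies at 1.22 and 0.88 under Dactolisib, and the tested probe sets of the other members lie between -0.04 and 0.11 under that drug.

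The Dasatinib arrays were not used in choosing the family, although their comparison shares DMSO arrays with the one that was, and here Ypel2 showed no difference that passed the test. Its own-set differences on 1434277_a_at were -0.06 on Dasatinib 1 and 0.00 on Dasatinib 2, which gave -0.03 ± 0.10 within array sets (limma adjusted p = 0.967, 95% interval -0.26 to 0.20). The 2 tested probe sets did not run alike: on 1454901_at Dasatinib 1 was lower by 0.30 and Dasatinib 2 higher by 0.46 than the DMSO array of its set, the latter at rank 171 of all tested probe sets on that array. Their mean difference was 0.08 ± 0.18 (limma adjusted p = 0.948, 95% interval -0.35 to 0.51). The 4 DMSO arrays of this probe set spread over 4.69 to 5.21, so both Dasatinib arrays lay within the range of the controls.

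Dactolisib and Dasatinib were given at the same concentration and for the same time. Ypel2 was higher under Dactolisib than under Dasatinib by 1.03 ± 0.13 within array sets on 1434277_a_at and by 1.10 ± 0.21 on 1454901_at, and by 1.15 ± 0.19 and 1.16 ± 0.25 without the block. This comparison uses the Dactolisib arrays by which the family was chosen, so it too is a description. Of the 7 tested family probe sets limma called 0 either way, as it did among all tested probe sets (0%), and the same 2 Ypel2 probe sets were higher at an unadjusted p under 0.05 in both fits, as were 5.35% of all tested probe sets within array sets and 1.53% without the block. Both Dactolisib arrays lay above both Dasatinib arrays on 5 of the 7 tested probe sets (7 of all 10), where 18.9% of all tested probe sets did so. The exceptions among the tested ones were Ypel1 1431781_at and Ypel5 1433593_at. On Ypel3 the lower Dactolisib array barely cleared the higher Dasatinib array (10.617 against 10.614), as on Ypel1 1421048_a_at (5.105 against 5.102). Within array sets the drugs differed there by 0.07 ± 0.11 and 0.10 ± 0.11.

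**Figure D3:**
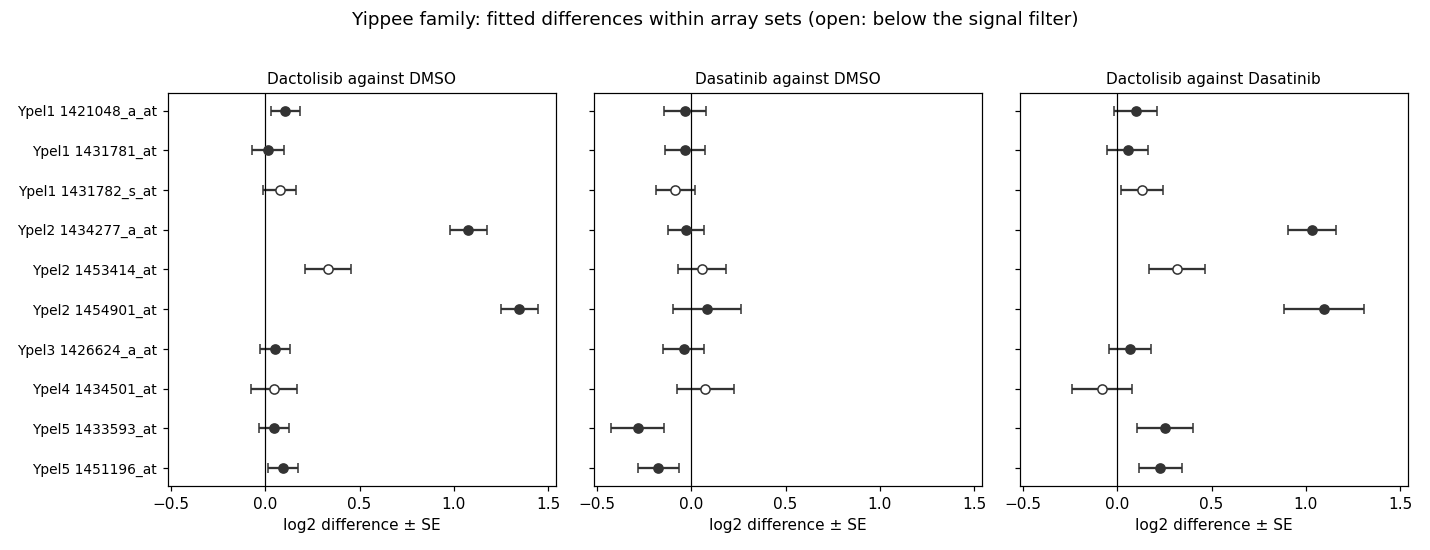
Fitted log2 difference within array sets (x axis, points) with its SE (bars) for the 10 family probe sets (y axis) in the 3 comparisons, with open points for probe sets below the signal limit. The tested Ypel2 probe sets lie at 1.08 and 1.35 for Dactolisib against DMSO, at -0.03 and 0.08 for Dasatinib against DMSO and at 1.03 and 1.10 for the drugs against each other.

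Ypel5, the CTLH subunit, differed little under Dactolisib and was lowest on 1 Dasatinib array. On 1451196_at its log2 signal was 10.86 and 10.80 under Dactolisib, 10.36 and 10.67 under Dasatinib, and 10.71, 10.72, 10.79 and 10.67 on DMSO 2 to 5. On 1433593_at it was 8.75 and 8.92 under Dactolisib, 8.41 and 8.84 under Dasatinib, and 8.66, 8.87, 8.75 and 8.96 under DMSO. Dasatinib 1 was thus the lowest of the 8 arrays on both probe sets, and Dasatinib 2 lay within the range of the DMSO arrays on both.

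Against DMSO, Dactolisib gave a Ypel5 difference of 0.09 ± 0.08 on 1451196_at and 0.05 ± 0.08 on 1433593_at within array sets, with 95% intervals of -0.09 to 0.28 and -0.14 to 0.23. Under Dasatinib the Ypel5 differences within array sets were -0.18 ± 0.11 and -0.28 ± 0.14, both with a limma adjusted p of 0.85 (unadjusted 0.152 and 0.086), and the 95% intervals reached from -0.44 to 0.08 and from -0.62 to 0.05. The own-set differences on Dasatinib 1 were -0.30 and -0.55, and on Dasatinib 2 -0.05 and -0.02, so the lower values came from 1 array. Dasatinib 1 also differed from DMSO 5 in the summed fibroblast markers by -1.01 on the log2 scale (9 of 9 genes on the array, 8 of 9 tested), in the monocyte and macrophage markers by 0.34, in the granulocyte markers by -0.17 and in the 3′ to 5′ log2 ratio of Gapdh by -0.11, and the corresponding values on Dasatinib 2 were -0.21, -0.07, 0.01 and -0.01. Of the 8 tested fibroblast markers, 6 were lower under Dasatinib at an unadjusted p under 0.05 within array sets and 0 were called, where 4.88% of all tested probe sets had such a p in either direction and 0% were called. The defining fibroblast genes Col1a2 and Col3a1 stood at 8.76 and 8.67 on Dasatinib 1 and at 9.72 and 9.82 on DMSO 5. The own-set differences of all tested probe sets had an SD of 0.32 on Dasatinib 1 and 0.15 on Dasatinib 2. The part of these shifts in the Ypel5 values was not tested.

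Ypel3, the p53 target, followed the array sets. Its log2 signal was 11.09, 11.01 and 11.09 on Dactolisib 1, DMSO 2 and DMSO 4 of set A, 10.62, 10.61 and 10.55 on Dactolisib 2, Dasatinib 2 and DMSO 3 of set B, and 9.82 and 9.97 on Dasatinib 1 and DMSO 5 of set C. The order of the sets was the same as that of the summed granulocyte markers given above, and differed from that of the epithelial markers, which were lowest in set B. Over the 8 arrays the granulocyte sum ran from 15.46 to 15.93 and Ypel3 from 9.82 to 11.09. With 3 sets few orders are possible, and the part of cell content in the Ypel3 values was not tested. In RNA from a bulk cell fraction, fewer cells of a type and less RNA per cell cannot be told apart. The treatments overlapped within this spread: without the block Ypel3 differed by 0.20 ± 0.34 under Dactolisib and by -0.44 ± 0.38 under Dasatinib (limma adjusted p = 1).

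Within array sets these Ypel3 differences shrank to 0.05 ± 0.08 under Dactolisib, with a 95% interval of -0.13 to 0.24, and to -0.04 ± 0.11 under Dasatinib, with an interval of -0.30 to 0.21 and a limma adjusted p of 0.955. The own-set differences of Ypel3 were 0.04 and 0.07 on the Dactolisib arrays and -0.15 and 0.07 on the Dasatinib arrays. DMSO 2 and DMSO 4 differed by -0.09. Dactolisib against Dasatinib gave 0.64 ± 0.43 for Ypel3 without the block and 0.07 ± 0.11 within array sets.

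Ypel1, a near relative of Ypel2 by sequence, lay close to its DMSO arrays under both drugs. On 1421048_a_at its log2 signal was 5.28 and 5.11 under Dactolisib, 4.85 and 5.10 under Dasatinib and 4.99 to 5.21 under DMSO. On 1431781_at it was 6.02 and 6.23 under Dactolisib, 5.95 and 6.17 under Dasatinib and 5.89 to 6.27 under DMSO, so all groups overlapped there. Within array sets Dactolisib differed from DMSO by 0.11 ± 0.08 and 0.02 ± 0.08 on these probe sets. Dasatinib differed by -0.03 ± 0.11 on both, with limma adjusted p values of 0.967 and 0.964. Its dim probe set 1431782_s_at lay between 2.86 and 3.20 on the 8 arrays.

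Ypel4 had a log2 signal of 3.71 and 3.80 under Dactolisib, 3.52 and 4.00 under Dasatinib and 3.44 to 3.84 under DMSO, all below the limit for testing. DMSO 2 and DMSO 4 of the same set differed by -0.40 on it, more than any of the 4 own-set differences of Ypel4, which ran from -0.06 to 0.20.

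Within the family, limma called 0 of 7 tested probe sets under Dasatinib in either fit, as it called 0% of all tested probe sets, and 0 family probe sets had an unadjusted p under 0.05, where 4.88% of all tested probe sets had one within array sets and 0.366% without the block. The methods' t-test called 0 after adjustment. On 0 of the 7 did the Dasatinib arrays lie wholly above or wholly below the 4 DMSO arrays, as they did on 1.9% and 2.4% of all tested probe sets. The median Dasatinib difference of the 7 probe sets within array sets was -0.03, against 0.00 for all tested probe sets. In both own-set comparisons 2 of the 7 were lower (3 of all 10) and 0 were higher, where 24.9% and 22.3% of all tested probe sets were so. The 2 were those of Ypel5. Under Dactolisib the median of the 7 was 0.09, against 0.00 for all tested probe sets, and 6 of 7 (9 of all 10) were higher in both own-set comparisons, where 32.1% of all tested probe sets were. Outside Ypel2 the tested probe sets in this count were higher by only 0.04 to 0.11. The SD of all tested probe sets was 0.22 on Dactolisib 1 and 0.24 on Dactolisib 2. Since the comparison chose the family, nothing is read from the count.

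The members were compared with one another through the change in the log2 ratio of their probe sets, 10 pairs for each drug, with a term for the array set over all 8 arrays. Ypel1 was taken by 1431781_at, Ypel2 by 1434277_a_at and Ypel5 by 1451196_at. Under Dactolisib, as a description of the values that chose the family, the log2 ratio of Ypel2 to the others was higher by 1.03 ± 0.12 against Ypel3 and 0.99 ± 0.10 against Ypel5, and the ratio of Ypel1 to Ypel2 differed by -1.03 ± 0.11. Against Ypel4, whose probe set lay below the signal limit, it was higher by 1.04 ± 0.19. The 6 ratios among the other members differed by -0.05 to 0.02. Under Dasatinib the 4 ratios with Ypel2 differed by at most 0.19 ± 0.11, and their 95% intervals all held 0. The ratio of Ypel3 to Ypel5 differed by 0.12 ± 0.02 (SE) under Dasatinib, given as a description, since 1 of 10 pairs was picked here for its small error. Its p from the least-squares fit, adjusted over the 10 Dasatinib pairs, was 0.113.

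Over the 8 arrays with the mean of each array set removed, the 2 tested Ypel2 probe sets had a Pearson r of 0.96 with each other and the 2 of Ypel5 one of 0.93, while the 2 tested probe sets of Ypel1 had 0.00. Ypel3 had an r of 0.85 with Ypel5 1451196_at, 0.86 with Ypel5 1433593_at, 0.33 with Ypel2 1434277_a_at and 0.53 with Ypel2 1454901_at. All of these values rest on the same 8 arrays and 3 set means, and are given as a description.

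By the same measure over 14237 genes, the 5 patterns most like Ypel2 were those of Rbm7, an RNA-binding protein of the exosome targeting complex, with an r of 0.997, Oser1 and Nkiras2 with 0.996, and Spryd7 and Myo7b with 0.995. Without removing the set means, these 5 had an r of 0.37 to 0.70 with Ypel2. The own-set differences of these genes were smaller than those of Ypel2. Spryd7 was higher by 0.49 and 0.31 on the Dactolisib arrays and differed by 0.01 and -0.05 on the Dasatinib arrays, and Rbm7 was higher by 0.35 and 0.24 and differed by -0.05 and 0.00. With the set means removed, most like Ypel5 was Ankrd54 (r of 0.997), followed by Kctd9, Col6a1, Gdf11 and Vipr1. Ankrd54 had own-set differences of -0.27 and -0.07 on the Dasatinib arrays. Without removing the set means, the r with Ypel5 was 0.99 for Ankrd54 and 0.89 for Gdf11. It was 0.09 for Col6a1, -0.04 for Vipr1 and -0.56 for Kctd9. Col6a1, a collagen of connective tissue, differed by -1.14 on Dasatinib 1. With the set means removed, the 5 for Ypel3 were Tmem61, Gnmt, 4933428M09Rik, Ythdc1 and Defa39 (r of 0.98 to 0.99). For Ypel1 they were Bsn, Nckipsd, Ccdc33, Bcr and Apoo (0.97 to 0.99). The Ypel1 pattern is that of 1431781_at alone, which had an r of 0.00 with 1421048_a_at. Without removing the set means, the r ran from -0.07 to 0.75 for Ypel3 and from -0.51 to 0.78 for Ypel1.

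All 10 listed partners of Ypel5 in the CTLH ligase were tested, and 2 of them rose under Dactolisib within array sets while 0 fell, where 2.19% of all tested probe sets were called higher and 4.2% lower. Ranbp9, a scaffold subunit, had a log2 signal of 9.96 and 10.34 on Dactolisib 1 and 2, 9.09 and 9.67 on Dasatinib 1 and 2, and 9.27, 9.58, 9.18 and 8.96 on DMSO 2 to 5. Both Dactolisib arrays of Ranbp9 stood above all others, and it rose by 0.75 ± 0.08 (limma adjusted p = 0.00941). Its probe set is of the _x_at class, which by the maker's naming can also bind other transcripts. Ranbp10, a paralog of Ranbp9, lay at 8.97 and 9.14 under Dactolisib, 8.26 and 8.75 under Dasatinib and 8.29 to 8.69 under DMSO, and rose by 0.44 ± 0.08 (limma adjusted p = 0.0233). Without the block Ranbp9 differed by 0.90 ± 0.20 and Ranbp10 by 0.54 ± 0.14, each with a limma adjusted p of 0.775. Without Dactolisib 1, Dactolisib 2 or DMSO 3, 0 of all tested probe sets passed within array sets, these included.

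The other 8 CTLH subunits did not pass under Dactolisib. Over the 10 subunits the median Dactolisib difference was 0.15 within array sets, against 0.00 for all tested probe sets, and 5 were higher and 1 lower at an unadjusted p under 0.05, where 9.68% and 13.9% of all tested probe sets were. Ypel5 itself stood at 0.09 and 0.05. Under Dasatinib 0 of the 10 passed with limma in either fit, as did 0% of all tested probe sets. None had an unadjusted limma p under 0.05, where 4.88% of all tested probe sets had one within array sets and 0.366% without the block. The median of the 10 within array sets was 0.03. The genes of lowest p there were Gid8 at 0.14 ± 0.12 and Ranbp9 at 0.11 ± 0.10, with limma adjusted p values of 0.859 and 0.869.

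**Figure D4:**
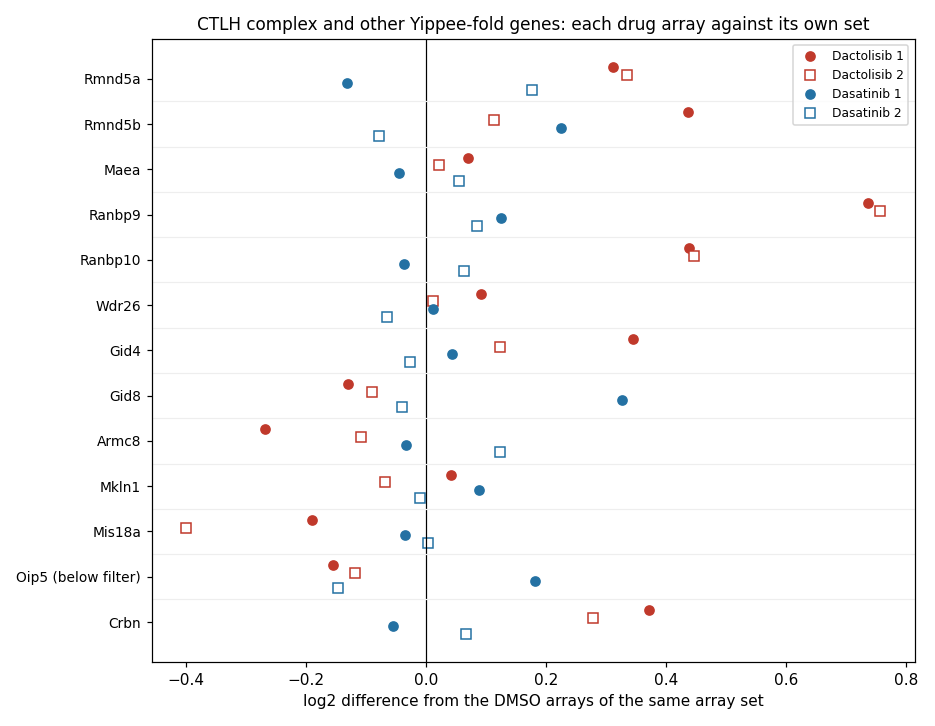
Own-set difference (x axis, log2) of each drug array for the 10 CTLH subunits and the 3 other genes of the Yippee, Mis18 and cereblon fold (y axis). Circles are replicate 1 and squares replicate 2, red for Dactolisib and blue for Dasatinib; Ranbp9 lies at 0.74 and 0.76 and Ranbp10 at 0.44 and 0.45 under Dactolisib.

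Of the 3 other genes of the fold, 2 were tested and 0 passed in any comparison. Crbn, which encodes cereblon, had a log2 signal of 8.98 and 8.92 under Dactolisib, 8.03 and 8.71 under Dasatinib and 8.58, 8.64, 8.64 and 8.09 on DMSO 2 to 5. Its Dactolisib arrays were the highest, at 0.33 ± 0.08 within array sets (limma adjusted p = 0.052), and its Dasatinib difference was 0.01 ± 0.10 (0.993). Mis18a, which helps to deposit centromeric histone, was at -0.28 ± 0.09 under Dactolisib (limma adjusted p = 0.104) and at -0.02 ± 0.10 under Dasatinib (0.984). Its probe set, like that of Ranbp9, is of the _x_at class. Oip5, the partner of Mis18a, lay below the signal limit.

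Ypel3 was set beside 24 other p53 target genes, of which 22 had a single-gene probe set and were tested. Under Dactolisib 1 of them rose and 3 fell within array sets, beside the 2.19% higher and 4.2% lower among all tested probe sets, and their median was -0.05, against 0.00 for all tested probe sets. Bbc3, which encodes the death-promoting protein PUMA, rose by 0.42 ± 0.08 (limma adjusted p = 0.027). Xpc, a sensor of DNA damage, fell by 0.88 ± 0.11 (0.0112), Ccng1, cyclin G1, fell by 0.72 ± 0.10 (0.0138), and Ei24, a protein of the endoplasmic reticulum, fell by 0.52 ± 0.09 (0.0226), all with adjusted p values from limma. These calls too were lost without Dactolisib 1, Dactolisib 2 or DMSO 3.

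The log2 signal of Xpc was 7.48 and 7.39 on the Dactolisib arrays and 8.03 to 8.58 on the DMSO arrays, so the groups did not overlap, and that of Bbc3 was 8.26 and 8.11 against 6.89 to 7.80. None of these 22 genes passed without the block, where 0 were higher and 3 lower at an unadjusted limma p under 0.05 (2.89% and 3.35% of all tested probe sets). Under Dasatinib limma passed 0 of 22 without the block and 0 of 22 within array sets, as it passed 0% of all tested probe sets. Within array sets 1 was higher and 1 lower by unadjusted limma p under 0.05, where 4.88% of all tested probe sets had such a p in either direction. The median of the 22 genes within array sets was 0.00. The lowest p values there belonged to Zmat3 at -0.37 ± 0.11 and Btg2 at 0.29 ± 0.11, both with a limma adjusted p of 0.85. Dactolisib against Dasatinib gave 0 calls among the CTLH subunits, the fold genes and the p53 targets in both fits, as among all tested probe sets (0%).

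Beside the Dactolisib values, 2 of 13 granulocyte markers, 3 of 12 monocyte and macrophage markers, 2 of 13 epithelial markers and 1 of 8 fibroblast markers were called lower within array sets and 0 of each were called higher (4.2% and 2.19% of all tested probe sets). The summed levels moved by -0.08 and -0.07 for granulocyte, -0.03 and -0.05 for monocyte and macrophage, -0.22 and -0.14 for epithelial and -0.17 and -0.12 for fibroblast markers on Dactolisib 1 and 2. The 3′ to 5′ log2 ratio of Gapdh moved by 0.01 and 0.02 and that of beta-actin by 0.05 and 0.07. The part of these markers in the family values was not tested.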

How the data were processed

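RNA of 8 Gr-MDSC samples was measured on Affymetrix mouse arrays, and the authors deposited 1 table of log2 signals. Array medians lay between 4.82 and 4.87, and the values were used as deposited. For the summary of probes, MAS5 stands in the submitters' notes and the oligo package in the paper, and for the extraction, Trizol in the labels and RNeasy in the paper, so neither step is settled here. Sample titles gave the treatments, because both Dasatinib samples are marked Dactolisib in another label.

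Probe sets were named through the array's annotation: 34945 name 1 gene, 932 name more than 1 and 9160 name no gene, beside 64 controls. For genes outside the family, and for family ratios and patterns, the brightest single-gene probe set on average stands for the gene. The 30024 of 45037 probe sets of highest mean were fitted by linear models with empirical Bayes moderation (limma 3.58.1, R 4.3.3), and p-values were adjusted over all of them by Benjamini-Hochberg at 0.05: each drug with DMSO on 6 arrays, the drugs with each other on all 8. Array sets came from average linkage on 1 minus the Pearson correlation, and were the same without the family and marker genes. Within array sets a drug against DMSO leaves 2 residual degrees of freedom. Member ratios were fitted by least squares. The number of arrays limits the precision, and levels of different probe sets were not compared.

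All single-gene probe sets of the family are reported. List genes are named where they pass within array sets, at most the 4 of lowest p, or else the 2 of lowest p. The family, the gene and marker lists, the array sets and the motifs were chosen with earlier results of these data, or the sequences, known. The calculation was tested on simulated data. Alternatives were quantile normalization, 32 added before log2, other filters, a trended and robust prior, the methods' t-test, the array set as a random block, other arrays in the fit, other probe sets of a gene and each array left out. Leaving out set C was added after the data had been seen.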

Additional observations from a re-analysis of the deposited data

How the results depend on the processing

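Of the 6 counts of called family probe sets, the 3 without the array set block and that of Dasatinib within array sets stayed at 0 under every alternative that kept both arrays of each drug. For Dasatinib within array sets, probe sets outside the family were called without Dasatinib 2 and without DMSO 3. In both fits the difference is that of Dasatinib 1 from its set's DMSO array alone, so no count is read from them. For Dactolisib against DMSO within array sets the count of 2 went to 1 with a stricter filter on signal, which keeps only 1 Ypel2 probe set, and to between 0 and 2 when single arrays were left out. The calls were lost without Dactolisib 1 (Ypel2 at 0.88), without Dactolisib 2 or without DMSO 3 (both 1.22), as were those of all other tested probe sets. In these fits 1 array of the drug is assumed to vary like the rest. All tested probe sets called in this comparison were 1919 in the main fit. They were 3919 with 32 added, 3538 with the stricter filter, 3940 under a trended, robust prior and 1233 without a filter. They were 1087 with all 8 arrays in the fit, 560 with a random block and 2854 without DMSO 2. For Dactolisib against Dasatinib within array sets the count of 0 became 1 with 32 added, 1 with the stricter filter and 1 under a trended, robust prior, and ranged from 0 to 2 when single arrays were left out, with 2 without Dasatinib 2. The causes of these moves were not tested beyond the number of probe sets and arrays.

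Differences that changed sign were all small and not called. Without set C, Ypel3 differed by -0.029 (Dactolisib against DMSO, without block) and 0.066 (Dasatinib, within sets), Ypel2 by 0.0025 (Dasatinib, within sets), and for the drugs against each other Ypel1 by -0.039 (without block) and Ypel3 by -0.0049 (within sets). By probe set, Dasatinib without block gave -0.12 for Ypel1 1421048_a_at, -0.067 for the mean of the Ypel1 probe sets and 0.043 for Ypel2 1454901_at, and within sets Ypel2 gave 0.083 on 1454901_at, 0.037 for the mean and 0.027 with all 8 arrays in the fit.

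Leaving out single arrays, Ypel1 ranged from -0.011 to 0.21 and Ypel3 from -0.037 to 0.44 for Dactolisib without block, and Ypel1 from -0.035 to 0.054 within sets. For Dasatinib, Ypel1 ranged from -0.077 to 0.14 without block and from -0.10 to 0.035 within sets, Ypel2 from -0.059 to 0.0025 and Ypel3 from -0.15 to 0.066 within sets. For the drugs against each other, Ypel1 ranged from -0.041 to 0.18 without block and from -0.019 to 0.094 within sets, and Ypel3 from -0.0049 to 0.20 within sets. Without block, Ypel3 kept its sign but ranged from -0.83 to -0.04 for Dasatinib against DMSO and from 0.24 to 1.03 for the drugs against each other. The Ypel2 difference of Dactolisib from DMSO kept its direction throughout, from 0.77 to 1.30 without block and from 0.88 to 1.22 within sets.

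A replicate block was possible only for the 2 drugs, since each drug shares 1 replicate number with DMSO. Over the 4 drug arrays it called 0 family probe sets, as it called 0 of all tested probe sets. It gave Ypel2 1.15 ± 0.21, as a description. The difference of replicate 1 and 2 correlated between the drugs across 30024 probe sets (r = 0.559, where probe sets are not independent), but no label ties the 2 pairs, so the samples share only a number. The 4 drug arrays alone could not be fitted within array sets, as no residual degrees of freedom remain.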
